A study of Mus musculus with 6 samples.

Results

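The 9 early lymphoid priming genes Flt3, Il7r, Notch1, Ccr9, Dntt, Rag1, Satb1, Bcl11a and Ly6d were followed across 6 arrays of sorted mouse bone marrow progenitors. All probe sets that the probe table maps to these symbols alone were taken, which gave 27 of the 45037 probe sets that are not controls, and 9 of 18193 named genes. The samples are LSK cells, the lineage-negative fraction sorted for Sca-1 and c-Kit, which holds the stem cells and multipotent progenitors. All came from adult Mx1Cre;Ergkd/+;R26Y mice on a mixed 129-B6 background, so every sample carried the Erg knockdown allele, the Mx1Cre transgene, whose promoter answers to interferon, and the R26Y reporter. From each of the 3 mice 278, 279 and 281 came 1 array of YFP+ cells, whose label gives Erg as back at the wild type level (restored-labelled), and 1 array of YFP- cells, whose label gives Erg as reduced by about 40% (knockdown-labelled). The agent that switched on Cre and the age beyond adult are not given in the sources used here. Because the sort was made on the reporter, Erg dose and Cre action cannot be told apart here.

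Lymphoid priming is the low-level activation of lymphoid genes in multipotent progenitors before they commit to a lineage. Within the LSK gate it marks the lymphoid-primed multipotent progenitors, which carry the receptor FLT3 and feed the common lymphoid progenitors, where the interleukin-7 receptor and LY6D appear. The genes fall into surface receptors for cytokines, Notch ligands and chemokines (Flt3, Il7r, Notch1, Ccr9), enzymes that assemble and diversify antigen receptor genes (Rag1, Dntt), nuclear regulators (Satb1, Bcl11a) and a surface marker of B-lineage bias (Ly6d). ERG, the factor whose dose was altered, belongs to the ETS family, which binds a GGAA core.

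Since the members' means lay in the same direction and ERG is an ETS protein, the promoter letters of 4 of them are shown. By the brightest probe set of each gene with a listed promoter, 3 had the largest differences (Rag1, Ccr9, Il7r) and 1 the smallest (Dntt). The Il7r difference came mostly from mouse 279, and single other probe sets of Satb1 and Bcl11a were about as large. Each stretch lies before the gene, 5′ to 3′ on the gene's strand, from RefSeq on GRCm38.p6. It is the whole window of 250 bases before the listed transcript start for Rag1, Ccr9 and Dntt. For Il7r it is the 185 bases of that window outside the gene's span, since the listed start lies inside the span and puts 65 bases of the window within the gene. They lie at chr2:101649533-101649782 (minus strand) for Rag1, chr9:123766961-123767210 (plus strand) for Ccr9, chr15:9529942-9530126 (minus strand) for Il7r and chr19:41029025-41029274 (plus strand) for Dntt. Capitals mark the ETS core GGAA on either strand, which reads TTCC where it lies on the other strand.
Rag1: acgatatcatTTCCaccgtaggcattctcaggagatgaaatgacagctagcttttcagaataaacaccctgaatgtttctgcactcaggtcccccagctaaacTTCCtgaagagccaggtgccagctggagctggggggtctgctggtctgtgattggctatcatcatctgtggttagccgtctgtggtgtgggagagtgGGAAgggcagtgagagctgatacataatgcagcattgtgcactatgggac
Ccr9: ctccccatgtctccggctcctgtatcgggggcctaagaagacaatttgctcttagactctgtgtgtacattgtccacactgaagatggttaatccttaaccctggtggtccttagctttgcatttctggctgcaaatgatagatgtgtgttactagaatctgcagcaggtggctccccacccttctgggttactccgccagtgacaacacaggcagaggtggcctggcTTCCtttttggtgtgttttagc
Il7r: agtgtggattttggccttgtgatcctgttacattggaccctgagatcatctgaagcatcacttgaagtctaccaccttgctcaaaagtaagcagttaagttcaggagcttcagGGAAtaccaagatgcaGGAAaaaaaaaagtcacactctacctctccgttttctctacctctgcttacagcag
Dntt: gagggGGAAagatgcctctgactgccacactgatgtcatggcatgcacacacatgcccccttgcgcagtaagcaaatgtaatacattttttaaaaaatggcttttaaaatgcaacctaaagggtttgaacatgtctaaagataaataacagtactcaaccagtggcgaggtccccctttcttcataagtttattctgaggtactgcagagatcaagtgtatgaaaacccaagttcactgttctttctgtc

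The promoter table matched 8 of the 9 genes, all but Ly6d, and the whole 250-base window of the first listed promoter of each was searched, which for Bcl11a lies inside the gene's span. The core GGAA was present in 8 of 8, with 3 matches in Rag1, 1 in Ccr9, 4 in Il7r (2 of them in the stretch shown) and 1 in Dntt, but 93.4% of all 27025 promoters of this length hold it. A longer ETS form that contains the core, AGGAAG, stood in 3 of 8 (Rag1, Ccr9 and Il7r) against 29.2% of promoters, and CCGGAAG in 0 of 8 against 7.05%. The AGGAAG match of Il7r lay in the part of the window within the gene, which is not shown. The E-box letters CAGCTG were found in 1 of 8 (Rag1) against 12.8%, CACCTG in 2 of 8 (Rag1 and Ccr9) against 17.1%, and the RUNX letters TGTGGT in 1 of 8 against 14.2%, with 2 matches in Rag1. Both strands were read for each. These are letter matches in a short window and were not tied to binding or to the differences below.

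The targeted gene was read first. The brighter Erg probe set read 2731, 2901 and 2659 in YFP+ cells of mice 278, 279 and 281, and 2969.9, 2754 and 2706 in YFP- cells, a difference of 0.024 ± 0.089 (adjusted p = 0.954, limma). The other read 1859, 1542 and 1686 against 1820.1, 1331 and 1569.7, a difference of -0.11 ± 0.088 (adjusted p = 0.818, limma). This second probe set was lower in the YFP- cells of each mouse (-0.031, -0.21 and -0.10), by 1.08-fold on average. Of all probe sets tested 10.4% were lower in all 3 mice. The groups overlapped at both Erg probe sets, so a reduction of the labelled size was not seen in Erg signal. Whether these probe sets lie where the allele acts is not known here, and groups are named by their labels.

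On these arrays each member read higher on average in the knockdown-labelled cells, and no probe set passed the test. Each difference is the knockdown-labelled minus the restored-labelled value of log2(intensity + 16), and its standard error (SE) comes from a limma fit with the mouse as a block. Of the 27 probe sets 20 had a mean intensity at or above 149, the median of all probe sets and the filter for testing, and these covered all 9 genes; none of the 20 passed only through the knockdown-labelled group, since 0 had a restored-labelled mean under the filter. In the 20, the difference was above 0 in 20, against 54.9% of the 22519 probe sets tested, and the median was 0.29 against 0.020 for all of them. Unadjusted p was below 0.05 for 4 of 20 on the higher side (Ly6d, Rag1 and 1 probe set each of Satb1 and Bcl11a) and for 0 on the lower side, against 4.75% and 1.32% of all probe sets. After Benjamini-Hochberg adjustment in limma the members' p ran from 0.799 to 0.850, and 0% of all probe sets passed 0.05. Probe sets of 1 gene share that gene and are not replicates, so the counts describe fewer items than they list. The members were chosen with earlier results of these data known, so the shares set beside them describe and do not test. In bulk RNA, fewer cells of a type and less RNA per cell cannot be told apart.

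The direction rested on the single mice unequally. In the 20 probe sets the median difference was 0.099 in mouse 278, where 13 were higher, 0.51 in mouse 279, where 20 were higher, and 0.36 in mouse 281, where 18 were higher. All 3 mice were higher for 11 of 20, against 20.8% of all probe sets, and all 3 lower for 0 of 20, against 10.4%. The knockdown-labelled arrays lay wholly above the restored-labelled ones for 4 of 20, against 9.63%, and wholly below for 0, against 4.36%. Counted by the brightest probe set of each gene, 9 of 9 were above 0 (50.1% of 10825 genes), 2 of 9 at unadjusted p below 0.05 (Rag1 and Ly6d; 3.1%), 6 of 9 higher in all 3 mice (19.9%) and 2 of 9 free of overlap (Ccr9 and Bcl11a; 10.1%). Of the 7 probe sets below the filter, 3 reached unadjusted p below 0.05 in a fit of all probe sets, where 4.46% did so on the higher side. The YFP+ array of mouse 279 was the lowest of the 6 in 14 of 20, and its control probes for Gapdh and beta-actin gave the largest mean 3' to 5' log2 ratio (0.71, against 0.47 to 0.54 on the other 5). When that array was left out and the mouse term dropped, 20 of 20 were still above 0, against 61.1% of all probe sets, but the median was 0.17 and 0 of 20 reached unadjusted p below 0.05, against 3.62% on the higher side. In those 5 arrays the groups did not overlap for 5 of 20, against 15.6%. The part of RNA quality in these differences was not tested. Centring the arrays at their medians shifted the median difference over all probe sets from 0.020 to -0.086. Under it 18 of 20 members were above 0 against 31.6% of all, their median was 0.19, and 4 of 20 reached unadjusted p below 0.05 on the higher side against 2.43%. The split of all probe sets at unadjusted p below 0.05 changed with it, from 78.3% higher to 35.6%, and to 49.8% after quantile normalization.

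**Figure D1:**
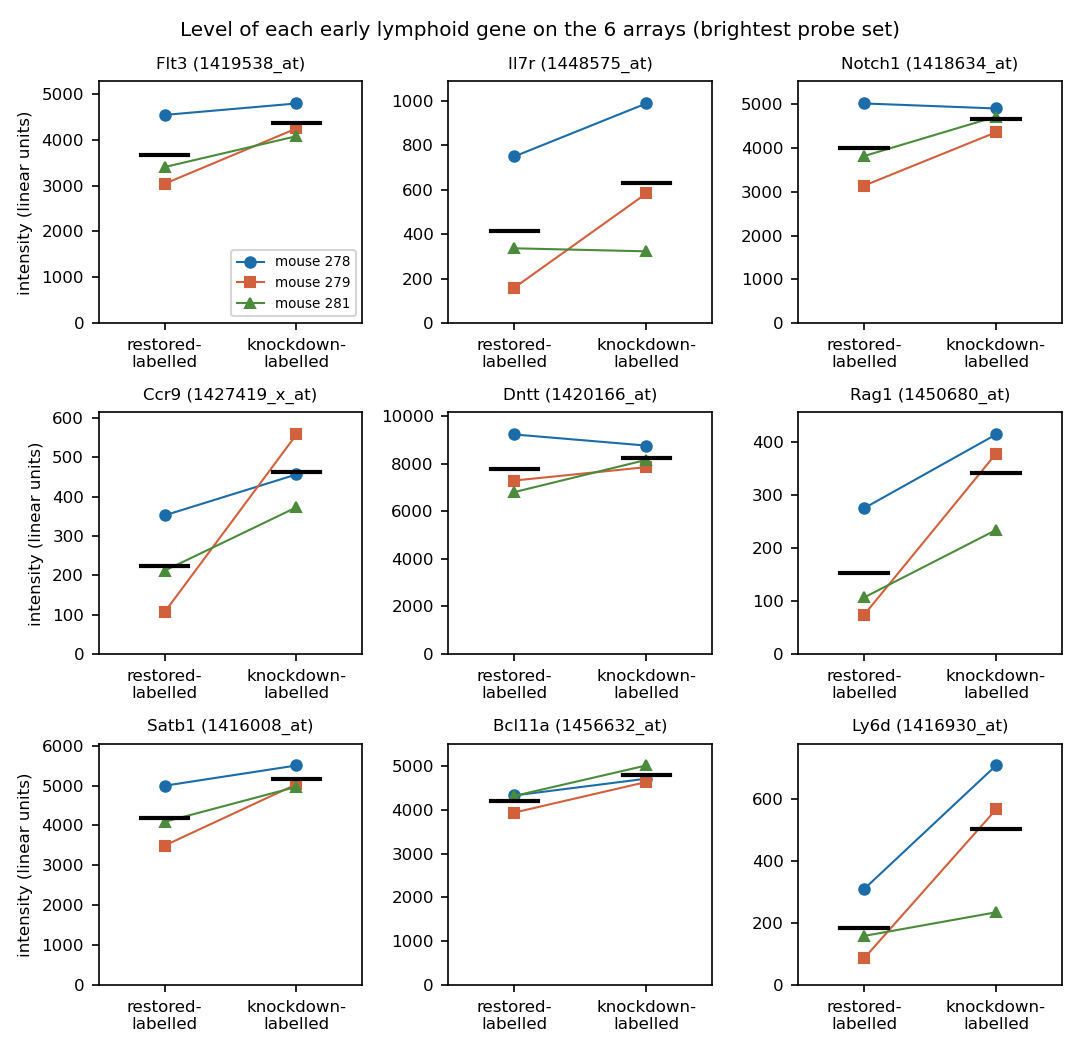
Intensity (linear units, each axis from 0) of the brightest probe set of each of the 9 genes in restored-labelled and knockdown-labelled cells; lines join the arrays of 1 mouse and black bars are means of 3 arrays. Mouse 278 has the highest restored-labelled point for 9 of 9 genes, and the YFP+ array of mouse 279 is the lowest of the 6 for 8 of 9.

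Flt3 (chr5:147330741-147400489, GRCm38.p6 as for the genes below) encodes the receptor tyrosine kinase that defines lymphoid-primed progenitors. Its single probe set read 4545, 3042 and 3407 in restored-labelled cells of mice 278, 279 and 281, and 4796, 4249.8 and 4081 in knockdown-labelled cells. All 3 mice were higher in the knockdown-labelled cells, but the YFP+ array of mouse 278 lay above the YFP- arrays of the other mice. The group means were 3664 ± 784 and 4376 ± 374 (SD, n = 3 arrays each). The difference was 0.27 ± 0.12 (SE; 95% interval -0.050 to 0.59; adjusted p = 0.799, limma) and 0.15 without the YFP+ array of mouse 279.

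Il7r (chr15:9506159-9529941) encodes the chain of the interleukin-7 receptor that lymphoid progenitors need for survival and growth. The tested probe set read 749.7, 159 and 336 in restored-labelled cells, and 988, 583 and 323 in knockdown-labelled cells. Mouse 279 had a wide gap (1.77), mouse 278 a smaller one (0.39) and mouse 281 was slightly lower (-0.057), so the groups overlapped widely. The means of 415 ± 303 and 631 ± 335 (SD, n = 3 arrays each) gave a difference of 0.70 ± 0.40 (adjusted p = 0.799, limma). That value was 0.18 without the YFP+ array of mouse 279 and 0.17 without mouse 279. The dim probe set of Il7r, with a mean of 76.1, read 134, 34.4 and 38.8 against 107, 95.1 and 47.5, and mouse 278 was lower there.

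Notch1 (chr2:26457902-26503822) encodes the receptor that directs progenitors to the T lineage. The brighter probe set read 5019, 3141 and 3817 in restored-labelled cells, and 4904, 4361 and 4718 in knockdown-labelled cells. Mouse 278 was level at -0.033, while mice 279 and 281 were higher by 0.47 and 0.30. The fit gave 0.25 ± 0.13 (adjusted p = 0.799, limma), and 0.089 without the YFP+ array of mouse 279. Its other probe set, close to the filter with a mean of 189, gave 0.42 ± 0.21 and split the mice the same way (-0.13, 0.70 and 0.69).

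Ccr9 (chr9:123767211-123783457), the receptor for the chemokine CCL25, guides progenitors to the thymus and marks early lymphoid and plasmacytoid dendritic cells. The brightest of its 5 probe sets, an _x_at set whose probes can match other transcripts, read 352, 106 and 212 in restored-labelled cells, and 456, 558 and 373 in knockdown-labelled cells. The groups did not overlap, and mouse 279 had by far the widest gap (2.23, against 0.36 and 0.77). The difference was 1.12 ± 0.41 (2.17-fold; 95% interval -0.035 to 2.28; adjusted p = 0.799, limma), and 0.71 without the YFP+ array of mouse 279. The next probe set read 337, 81.4 and 197 against 408, 595 and 326, a difference of 1.20 ± 0.53, and here mouse 278's YFP+ array reached above mouse 281's YFP- array. Without mouse 279 these differences were 0.57 and 0.48. The 3 probe sets below the filter, with means of 39.0 to 89.0, were higher in each mouse too, by 0.50, 0.60 and 0.81 on average. All 5 probe sets of Ccr9 thus pointed one way in all 3 mice.

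Rag1 (chr2:101638252-101649532) encodes the core of the recombinase that cuts antigen receptor genes. Its probe set read 275, 74.1 and 107 in restored-labelled cells, and 415, 379 and 234 in knockdown-labelled cells. The knockdown-labelled array was the higher of the pair in each mouse, and only the YFP+ array of mouse 278 reached into the other group. The means were 152 ± 108 and 342 ± 95.4 (SD, n = 3 arrays each), a difference of 1.24 ± 0.34 (2.36-fold; 95% interval 0.28 to 2.19; unadjusted p = 0.0229, adjusted p = 0.799, limma). It was 0.88 without the YFP+ array of mouse 279 and 0.79 without mouse 279. With 2 restored-labelled arrays below the filter intensity, the size was 1.35 with 1 added to each value and 0.99 with 64. Rag2, its partner in the recombinase, stayed below the filter with group means of 81.3 and 114.

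Dntt (chr19:41029275-41059525) encodes terminal transferase, which adds untemplated bases at the joints made by the recombinase. The brightest of its 3 probe sets read 9234, 7297 and 6810.2 in restored-labelled cells, and 8766, 7860.0 and 8165 in knockdown-labelled cells. The arrays of the groups interleaved, with the YFP+ array of mouse 278 the highest of all. The difference was 0.098 ± 0.11 (95% interval -0.20 to 0.39; adjusted p = 0.850, limma), and it turned to -0.0090 with centred arrays. The other probe sets gave 0.15 ± 0.10 and 0.20 ± 0.18, and mouse 278 was lower at all 3 probe sets (-0.075, -0.013 and -0.21). Dntt and Rag1, which act at the same joints, therefore had differences of unlike size on the log2 scale, a contrast that was not tested.

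**Figure D2:**
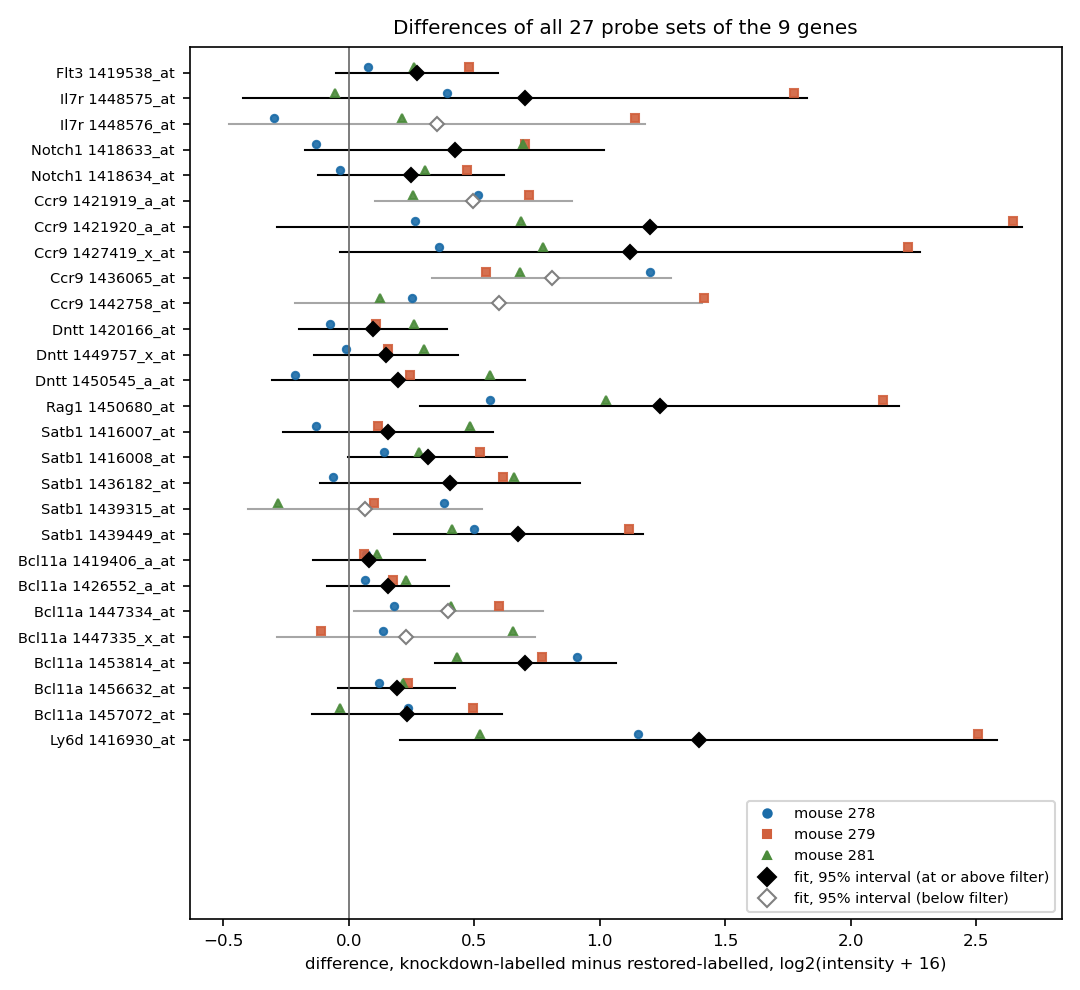
Difference of each of the 27 probe sets on the log2(intensity + 16) scale: coloured marks are the single mice, diamonds the fitted mean and lines its 95% interval, filled for the 20 probe sets at or above the filter and open for the 7 below it, whose fit had no filter. All 27 diamonds lie to the right of 0, and most intervals cross it; the widest belong to Ccr9, Ly6d, Il7r and Rag1, where mouse 279 stands far right.

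Satb1 (chr17:51736187-51833290) encodes a chromatin organizer that is active in lymphoid-biased progenitors and T cells. Its brightest probe set read 4997, 3496 and 4092 in restored-labelled cells, and 5505, 5034 and 4969 in knockdown-labelled cells. All 3 mice were higher, and the only overlap was the YFP+ array of mouse 278, which lay just above the YFP- array of mouse 281. The difference was 0.31 ± 0.11 (95% interval -0.0020 to 0.63; adjusted p = 0.799, limma), and 0.19 without the YFP+ array of mouse 279. A dimmer probe set read 573, 274 and 504 against 817, 613 and 676 with no overlap, a difference of 0.68 ± 0.18 (unadjusted p = 0.0196, adjusted p = 0.799, limma) that was 0.37 without that array. The probe sets 1436182_at and 1416007_at gave 0.40 ± 0.18 and 0.16 ± 0.15 with mouse 278 lower in each, and the latter stood at -0.0067 without mouse 281. The remaining one was below the filter with a mean of 78.6. The 4 tested probe sets of Satb1 therefore spanned 0.16 to 0.68.

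Bcl11a (chr11:24076564-24173558) encodes a zinc finger repressor needed for B cell development and for fetal globin silencing. The brightest of its 7 probe sets read 4328, 3937 and 4317 in restored-labelled cells, and 4711, 4635 and 5013 in knockdown-labelled cells. The groups did not overlap and the mice differed little from each other (0.12, 0.23 and 0.21). The fit gave 0.19 ± 0.083 (1.14-fold; adjusted p = 0.799, limma), and 0.15 without the YFP+ array of mouse 279. Its spread within a group was small, with means of 4194 ± 223 and 4786 ± 199.8 (SD, n = 3 arrays each).

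Other probe sets of Bcl11a did not give 1 size. The probe set 1426552_a_at also kept the groups apart, at 3080, 2898 and 2788 against 3218, 3277 and 3267 (0.16 ± 0.087). The probe set 1419406_a_at gave 0.081 ± 0.080, which turned to -0.025 with centred arrays, and 1457072_at gave 0.23 ± 0.14 with mouse 281 lower. Far from these stood 1453814_at, which read 190.3, 182 and 365 against 372, 322 and 499. It was higher in each mouse by 0.91, 0.77 and 0.43, and its difference of 0.70 ± 0.13 had the smallest p of the members (unadjusted p = 0.00574, adjusted p = 0.799, limma). Which transcript forms these probe sets read was not analysed here. The 2 probe sets below the filter, with means of 75.6 and 85.8, gave 0.40 and 0.23.

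Ly6d (chr15:74762056-74763567) encodes a GPI-anchored surface protein that separates B-biased from uncommitted common lymphoid progenitors. Its probe set read 310.2, 86.6 and 159 in restored-labelled cells, and 709, 567 and 235 in knockdown-labelled cells. Each mouse was higher (1.15, 2.51 and 0.52), but the YFP- array of mouse 281 lay below the YFP+ array of mouse 278. The means of 185 ± 114 and 504 ± 243 (SD, n = 3 arrays each) gave the largest difference of the 27 probe sets, 1.39 ± 0.43 (2.63-fold; 95% interval 0.20 to 2.59; unadjusted p = 0.0315, adjusted p = 0.799, limma). It was 0.99 without the YFP+ array of mouse 279, 0.84 without mouse 279, 1.48 with 1 added to each value and 1.18 with 64.

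Set side by side on each array, the members shared high and low arrays. The median deviation of the 9 genes from their own means was 0.20 on the YFP+ array of mouse 278, -0.44 on that of mouse 279 and -0.23 on that of mouse 281. The knockdown-labelled arrays gave 0.27, 0.12 and 0.10 for mice 278, 279 and 281. Mouse 278 thus had both of its populations high, and the restored-labelled arrays of mice 279 and 281 were the low ones, with 0 of 9 genes above their mean on either. Over all tested probe sets the same median lay between -0.027 and 0.034 on every array. Spread within a group was also unequal among members: Il7r, Ccr9, Rag1 and Ly6d ranged widely between restored-labelled arrays, and Bcl11a hardly.

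**Figure D3:**
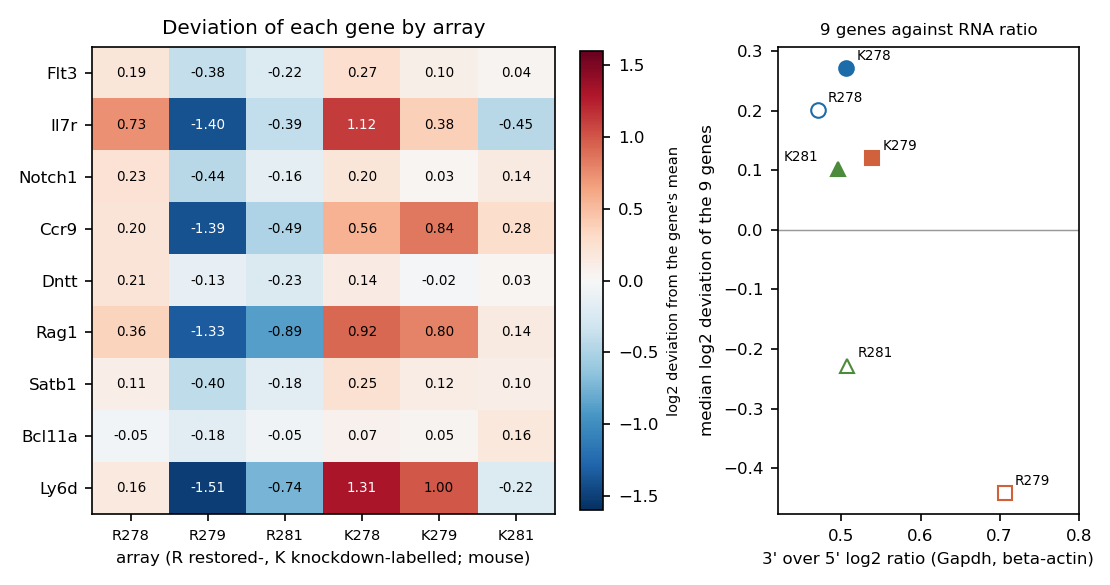
Left, log2 deviation of the brightest probe set of each gene from its mean over the 6 arrays (R restored-labelled, K knockdown-labelled, with the mouse number); right, the median of these 9 deviations on each array against the mean 3' over 5' log2 ratio of the Gapdh and beta-actin control probes. The YFP+ array of mouse 279 is lowest at -0.44 and farthest right at 0.71, while that of mouse 281 is low at -0.23 with a ratio of 0.51.

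The genes with the most similar profile were sought for Flt3, Dntt and Il7r by Pearson r of log2 values over the 6 arrays, which share 3 mice. Nearest to Flt3 were Thsd1 (r = 0.988), the lysophosphatidic acid receptor gene Lpar1 (0.986) and Gnptg (0.984), and Satb1 came 10th of 10824 genes with r = 0.977. Nearest to Il7r were the kinase gene Pdk1 (0.997), Spcs2 (0.996) and the interleukin-10 receptor gene Il10ra (0.992). Nearest to Dntt were Get1 (0.975), Cers5 (0.971) and Dkc1 (0.968), while Flt3 reached 0.859 with it. With so few arrays, r above 0.95 was reached by 56 genes for Flt3, 59 for Il7r and 11 for Dntt. Among the members Bcl11a had the lowest r with each of these genes, at 0.680 with Flt3, 0.486 with Il7r and 0.402 with Dntt; the other pairs of members were not computed.

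Genes that act with the members were counted by their brightest probe set, against 3.1% of 10825 genes at unadjusted p below 0.05 on the higher side and 1.41% on the lower side. Among 21 tested early lymphoid regulators, 17 were above 0 with a median of 0.097, and 4 were at unadjusted p below 0.05, all higher: Irf4 (2.37 ± 0.53) and Bcl11b (0.83 ± 0.22), factors of the plasma cell and T-cell fates, Foxo1 (0.28 ± 0.090), which drives Il7r and Rag genes, and Gata3 (0.26 ± 0.085). Irf4 passed the filter only through the knockdown-labelled arrays, with group means of 85.2 and 582, so it could enter the count on the higher side alone. The 17 other tested regulators ran from -0.19 ± 0.15 (Spi1) to 0.41 ± 0.26 (Lef1). Ikzf3, Ebf1 and Pax5 were below the filter. Their group means were 111 and 187 for Ikzf3, 131 and 166 for Ebf1, and 15.5 and 6.46 for Pax5. Ikzf3 was higher in 3 mice, Ebf1 in 2 and Pax5 in 1. None of the tested regulators passed after adjustment (adjusted p of 0.799 or above, limma), and the median over all 10825 genes was 0.00039.

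In the receptor and Notch pathway list, 18 of 22 tested genes were above 0 with a median of 0.053, and 2 reached unadjusted p below 0.05, both higher: Ccr7, a chemokine receptor of lymphoid homing (0.69 ± 0.18), and Cbl, a ligase that limits FLT3 signalling (0.26 ± 0.092). Ccr7 too passed the filter only through the knockdown-labelled arrays (group means of 111 and 192). Of the Notch targets in the list, Nrarp stood at 0.0071 ± 0.11 and Hes5 at 0.051 ± 0.38, and Hes1, Hey1, Dtx1 and Ptcra were below the filter. Notch2 was at 0.17 ± 0.085 and Socs3, an inhibitor of cytokine signalling, at -0.80 ± 0.46. Without mouse 279 the Socs3 difference was -0.17. In the V(D)J recombination list, which holds partners of RAG1 and terminal transferase, 3 of 8 tested genes were above 0, the median was -0.078 and 0 reached unadjusted p below 0.05; without mouse 279, 5 of 8 were above 0 with a median of 0.030. Single values were 0.22 ± 0.12 for Xrcc4 and -0.23 ± 0.16 for Poll. None of these genes passed after adjustment.

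**Figure D4:**
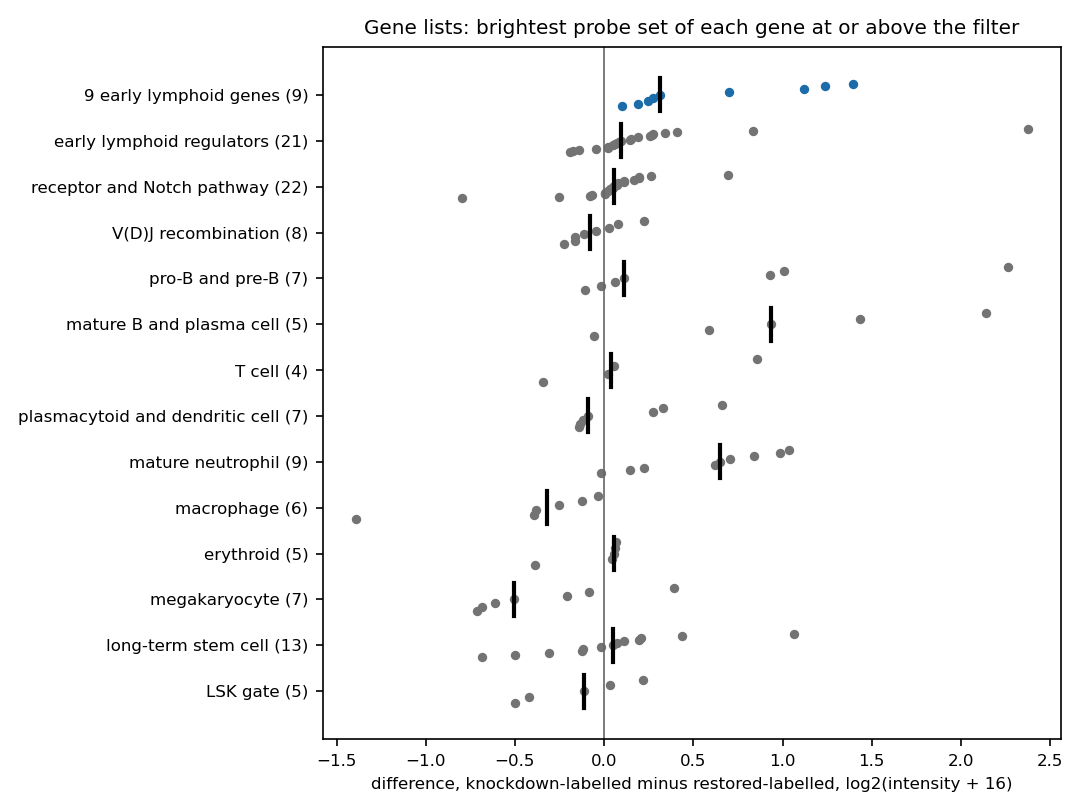
Differences on the log2(intensity + 16) scale of the genes of each list, 1 point per gene at its brightest probe set at or above the filter, with the number of genes in brackets and the median as a black bar. The 9 early lymphoid genes (blue) all lie above 0 with a median of 0.31, and the mature B and plasma cell list has a median of 0.94 over 5 genes; Flt3 is also a point of the plasmacytoid and dendritic cell list.

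Markers of other cells were read on the same arrays. The summed intensity of the mature B and plasma cell list (10 of 12 genes named by a probe set) was 13121 to 13945 on the restored-labelled arrays and 17658 to 29149 on the knockdown-labelled ones, with no overlap. Of its 5 tested genes 4 were higher at unadjusted p below 0.05: Ighm (2.14 ± 0.40), Mzb1 (1.44 ± 0.23), Sdc1 (0.94 ± 0.17) and Jchain (0.59 ± 0.18). Xbp1, the remaining tested gene, stood at -0.056 ± 0.10, and Prdm1 was below the filter (group means of 88.4 and 165). Ms4a1, Cd22, Fcer2a and Cr2, which define mature B cells, were below the filter too. Their group means were 42.2 and 76.7 for Ms4a1, which was higher in 1 mouse only, and 59.7 and 45.1 for Cd22. For Fcer2a they were 48.7 and 69.1, and for Cr2 40.9 and 37.7. Of 7 tested pro-B and pre-B genes 5 were above 0, and Blnk (0.93 ± 0.18) and Pou2af1 (2.26 ± 0.80) were at unadjusted p below 0.05, with sums of 18042 to 20336 against 20093 to 21650 that overlap. Igll1 split the mice, at 4.61, -2.38 and 0.79 in mice 278, 279 and 281 (1.01 ± 1.45). Cd79b was lower in all 3 mice (-0.11 ± 0.083). Its partner Cd79a was below the filter and higher in all 3 mice, with group means of 102 and 156. Vpreb3 and Blk were below the filter too, with group means of 56.3 and 71.8 for Vpreb3 and 40.7 and 35.8 for Blk. Pou2af1 passed the filter only through the knockdown-labelled arrays (group means of 125 and 923) and read 3.66, 3.07 and 0.059 in mice 278, 279 and 281. No listed marker of these sets was at 0 on an array. The part of B-lineage cells in the members' differences was not tested.

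Plasmacytoid dendritic cells also carry Ccr9, Rag1, Dntt, Ly6d and Bcl11a. Their list summed to 10321 to 12953 on the restored-labelled arrays and 11024 to 12891 on the knockdown-labelled ones, 3 of 7 tested genes were above 0, but the list holds Flt3 itself. Without Flt3 the sums were 6999 to 8407 and 6944 to 8095, 2 of 6 tested genes were above 0, and the median was -0.11. With mouse 279 left out as well, 3 of the 6 were above 0 and the median was -0.0014. Siglech, a defining marker, was below the filter with group means of 77.4 and 71.0. Zbtb46, a gene of conventional dendritic cells, was the 1 gene at unadjusted p below 0.05 (0.66 ± 0.17). The T-cell list summed to 1943 to 2304 against 1924 to 2371, with 3 of 4 tested genes above 0 and Cd3d, Cd3g, Cd4, Cd8b1, Themis and Cd5 below the filter.

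The remaining marker lists were read for the same arrays. Mature neutrophil genes summed to 16795 to 45055 on the restored-labelled arrays, lowest in mouse 279, and to 24356 to 49967 on the knockdown-labelled ones, with 8 of 9 tested above 0. Their median difference was -0.046 in mouse 278, 2.72 in mouse 279 and -0.58 in mouse 281, so it was wide in the mouse where the members' gap was widest. Without mouse 279, 1 of 9 neutrophil genes was above 0 with a median of -0.28, while 9 of 9 members were above 0 with a median of 0.17. Macrophage genes summed to 4951 to 6339 against 3538 to 5391 (0 of 6 above 0, C1qb at -1.39 ± 0.34), erythroid genes to 9502 to 15838 against 9016 to 17818 (4 of 5, or 1 of 5 without mouse 279, Hbb-b2 at -0.39 ± 0.084), and megakaryocyte genes to 9513 to 12705 against 8755 to 9986 (1 of 7, Vwf at -0.68 ± 0.14 and Gp1bb at -0.61 ± 0.15). Of the long-term stem cell genes 7 of 13 were above 0 and 6 below, with a median of 0.050. Their sum was 29886 to 34004 against 33397 to 35567. At unadjusted p below 0.05 in limma were 2 higher, with Ndn at 1.06 ± 0.10, and 1 lower, Vwf, which is in this list too. The shares over all genes were 3.1% and 1.41%. In the check of the sort, Kit read 3972 to 4572 on the restored-labelled and 4670.1 to 5206 on the knockdown-labelled arrays. Cd34 read 8800 to 9268 and 9090.4 to 9512. Of the tested gate genes 2 of 5 were above 0, with a median of -0.11. They ran from -0.50 for Slamf1, also in the long-term stem cell list, to 0.22 for Kit. Ly6a had no probe set mapped to it alone. The part of these cells in the members' values was not tested.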

How the data were processed

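Gene expression was measured in YFP+ and YFP- LSK cells of 3 mice on 6 Affymetrix mouse genome arrays after NuGEN Ovation V2 amplification, per the labels' protocols. The authors deposited linear intensities per probe set; how they corrected, summarized and scaled them: not given in the sources used here. Arrays carry no read depth, and their small number sets the precision (2 residual degrees of freedom per probe set).

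Of 45101 probe sets 64 controls were dropped. The probe table, an older annotation, names 34945 of the rest by 1 symbol, 932 by several and 9160 by none; 34741 matched the mouse gene table of GRCm38.p6 and no symbol changed. Values were taken to log2(value + 16), which understates changes of dim genes. The 22519 probe sets with a mean at or above 149 entered lmFit and eBayes of limma 3.58.1 (R 4.3.3), the mouse as a fixed block, with Benjamini-Hochberg adjustment over all of them at 0.05. Member probe sets below the filter were fitted without a filter. The fit was tested on simulated data. Figures were drawn with matplotlib 3.10.9.

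Pairing comes from the labels, since both populations came from 1 animal; correlations of deviations from group means were 0.27, -0.077 and -0.21 for mice 278, 279 and 281. The members and lists were chosen with earlier results of these data known. The text names all members, up to 4 genes of each list by the smallest unadjusted p, 3 genes by likeness to Flt3, Dntt and Il7r, and Erg. Spi1, Lef1, Nrarp, Hes5, Cd34, Slamf1, Igll1, Xbp1 and the genes given as below the filter were named after their values were seen. Alternatives covered the mouse block (none or random), normalization, filter, probe set choice, added value, variance settings, array weights and left-out mice or arrays; reading the dendritic cell list without Flt3 was chosen after seeing the data.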

Additional observations from a re-analysis of the deposited data

How the results depend on the processing

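Over 15 alternatives and the 20 tested probe sets of the members, 274 of 281 values kept their direction. Settings that changed only the mouse block, the trend and robust options or the set of probe sets tested left each difference as it was. Values from those settings could not turn, so the count overstates how far the direction was tried. All 281 stayed above an adjusted p of 0.05 in limma (lowest 0.0703, with array weights). The direction turned for Dntt 1420166_at (-0.0090) and Bcl11a 1419406_a_at (-0.025) with centred arrays, and with array weights for Dntt 1420166_at (-0.036) and 1450545_a_at (-0.12), Notch1 1418633_at (-0.015) and Satb1 1416007_at (-0.063); the weights did not converge, and the cause was not tested. Leaving out a mouse in turn gave -0.0067 to 0.30 for Satb1 1416007_at. The median of the tested members, 0.29, was 0.17 in the 5 arrays that leave out the YFP+ array of mouse 279, 0.18 without mouse 279, 0.40 without mouse 278 and 0.12 with array weights. With no replicate block it stayed 0.29, 3 member probe sets instead of 4 were at unadjusted p below 0.05 and 1295 instead of 1366 of all probe sets; the block changed no call after adjustment. The members' count was 8 of 27 with no filter, 2 of 12 in the upper 30% of probe sets, where fewer were tested, 9 with trend and robust settings, 0 in the 5 arrays and 4 to 7 without 1 mouse, 7 being without mouse 278. The count over all probe sets was 2705 with no filter, 822 in the upper 30%, 630 with 1 probe set per gene, 6397 with array weights and 575 without mouse 278. After adjustment 0 of all probe sets passed, but 1 did with array weights and 1, the same, in the 5 arrays (1452536_s_at, Igkv9-120, chosen after its value was seen). Several restored-labelled values of Rag1, Ly6d and Ccr9 lay near or below the filter intensity, which limits the precision of their differences.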
